A study of Mus musculus with 10 samples.

Results

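Splicing factors and other RNA-binding proteins of the mouse heart were described here through 86 protein-coding genes among the 56748 genes of the deposited count tables. The rule that picks members reads gene symbols and no measured value. They comprised 12 SR proteins (Srsf), 20 heterogeneous nuclear ribonucleoproteins (Hnrnp), 3 polypyrimidine tract binding proteins (Ptbp), 17 regulators with a more tissue-restricted expression (Mbnl, Celf, Rbfox, Rbpms, Rbm20, Rbm24 and Rbm38), the cold-inducible pair Cirbp and Rbm3, and 32 further genes of the Rbm series. Of the 86 genes, 76 passed a filter on low counts in these tables and were compared, and 10 did not.

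RNA was sequenced from the whole hearts, both atria included, of wild-type male C57BL/6 mice that were bought at 8 weeks of age and rested and acclimatized before training began. Training mice (n = 5) ran on a motorized treadmill at 15 m/min for 120 minutes on 5 days a week over 8 weeks, and sedentary control mice (n = 5) of matched age did not. Running was forced and not voluntary, and both groups shared 1 genotype. No drug separated the groups, and the study's methods describe PET/CT scans of training and sedentary mice under isoflurane with a glucose tracer before hearts were harvested. A directional library was made from the poly-A RNA of each heart, and all libraries were sequenced in 1 pool. The comparison asks which transcripts of the heart differ after endurance training.

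Pre-mRNA splicing removes introns and joins exons. SR proteins mostly bind exonic enhancers and promote the use of an exon, whereas hnRNPs and PTB proteins often bind silencers and favour its skipping. On top of this general machinery the heart uses regulators such as RBM20, RBM24, RBFOX, MBNL and CELF proteins, which set the adult isoforms of titin and of other sarcomere and calcium-handling proteins. Mutations of RBM20 cause a dilated cardiomyopathy. CIRBP and RBM3 are small RNA-binding proteins whose transcripts are raised by mild cooling.

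Reads counted on genes ranged from 29461697 to 35945417 per training heart and from 35196993 to 39431030 per sedentary heart, and training libraries were smaller (exact two-sided permutation test, p = 0.0238). Levels are given as CPM, the reads of a gene scaled to a library of 1000000 reads. All 11 markers of cardiomyocytes were detected, with a summed level of 72869 to 78785 CPM in training hearts and 76858 to 87381 CPM in sedentary hearts. The 10 atrial markers summed to 2643 to 4089 CPM in training and 1433 to 3324 CPM in sedentary hearts, with 10 of 10 above 0 in log2 fold change and 4 called higher, and the ranges of both groups overlapped. Among 18 clock genes 10 were called, 7 higher and 3 lower. For comparison with both lists, 7.01% of all genes tested were called, 2.75% higher and 4.26% lower. Bmal1 was between 5.67 and 8.67 CPM in training hearts and between 8.82 and 23.3 CPM in sedentary hearts, and the time of day of the dissections is not given in the sources used here. In RNA from whole hearts, fewer cells of a type and less RNA per cell cannot be told apart.

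The promoters of 73 of the 86 members were found by symbol in a RefSeq table of build GRCm38.p6. Cirbp and Hnrnpa0 are shown because one is the cold-inducible gene of the group with a known promoter element and the other was the member whose groups did not overlap. Each line gives 150 bases in the direction of the gene, from 250 to 101 before the annotated start. Capitals mark the mild-cold responsive element of Cirbp, TCCCCGCC, or its reverse complement on the opposite strand.
Cirbp promoter, chr10:80167589-80167738, plus strand: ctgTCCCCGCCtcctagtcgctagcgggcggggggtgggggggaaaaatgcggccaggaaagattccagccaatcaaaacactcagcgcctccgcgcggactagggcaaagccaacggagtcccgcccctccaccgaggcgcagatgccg
Hnrnpa0 promoter, chr13:58128657-58128806, minus strand: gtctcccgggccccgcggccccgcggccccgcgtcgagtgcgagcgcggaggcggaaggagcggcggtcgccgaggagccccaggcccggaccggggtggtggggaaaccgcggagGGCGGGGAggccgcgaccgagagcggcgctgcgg
The element began 247 bases before the start of Cirbp and 134 bases before that of Hnrnpa0. Over the 250 bases before the start, searched on both strands, it stood in 4 of the 73 members (5.48%; Cirbp, Hnrnpa0, Rbm19 and Srsf7) and in 1269 of 27025 genes of the table (4.70%). The E-box CACGTG, which clock proteins bind, stood in 7 members (9.59%) against 6.04% of all genes, and the cAMP element TGACGTCA in 1 member (1.37%) against 1.60%. CCAAT was found in 35 members (47.9%) against 34.5% of all genes. Rbm3, Hnrnpll and Rbm20 were not among the promoters read here.

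The members spanned a wide range of levels in the heart. Compared per length, as CPM per kb of the mean transcript length averaged over the 10 hearts, Hnrnpa2b1 was highest at 241, with a range of 226 to 262 over the hearts. It encodes an hnRNP of the A/B family that packages nascent transcripts. Hnrnpk followed at 158 and Rbpms, a regulator of smooth muscle and heart splicing, at 132 (124 to 147), and the hearts of these 3 neighbours in the order did not overlap in level per kb. Hnrnpl was at 103, Rbm38 at 93.1, Mbnl2 at 89.9 and Srsf5 at 87.4 CPM per kb, and the ranges of these 4 overlapped. Hnrnpll had the lowest level of the hnRNPs at 11.1 CPM per kb, Srsf9 the lowest of the tested SR proteins at 9.18, and Ptbp3 the lowest of the PTB proteins at 5.58.

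A gap of levels ran through the tissue-restricted group. Rbpms, Rbm38, Mbnl2, Rbm24 (78.7 CPM per kb), Rbm20 (57.7), Mbnl1 (34.8), Celf1 (25.5), Rbfox2 (24.7), Rbpms2 (19.6), Rbfox1 (17.2) and Celf2 (17.0) all stood above 15 CPM per kb, whereas Celf4 was at 0.298, Celf5 at 0.237 and Mbnl3, the member of its family that falls with muscle maturation, at 0.107. Celf3, Celf6 and Rbfox3, which are known from neurons, were under the filter on low counts. So were Srsf12, Srsf19, Rbm11, Rbm31y, Rbm42, Rbm44 and Rbm46, and Srsf19 and Rbm31y had no count in any heart. By RSEM, described below, Rbm42 had 1048 to 1351 reads per heart. Among the other Rbm genes the highest level was that of Rbm39, a partner of the U2AF splicing factor, at 60.5 CPM per kb (54.7 to 67.8), and the lowest that of Rbm47 at 0.348 (0.228 to 0.459). Summed over all 86 genes, members took 5353 to 5611 CPM in training hearts and 5283 to 5674 CPM in sedentary hearts, and the training range lay within the sedentary range.

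**Figure D1:**
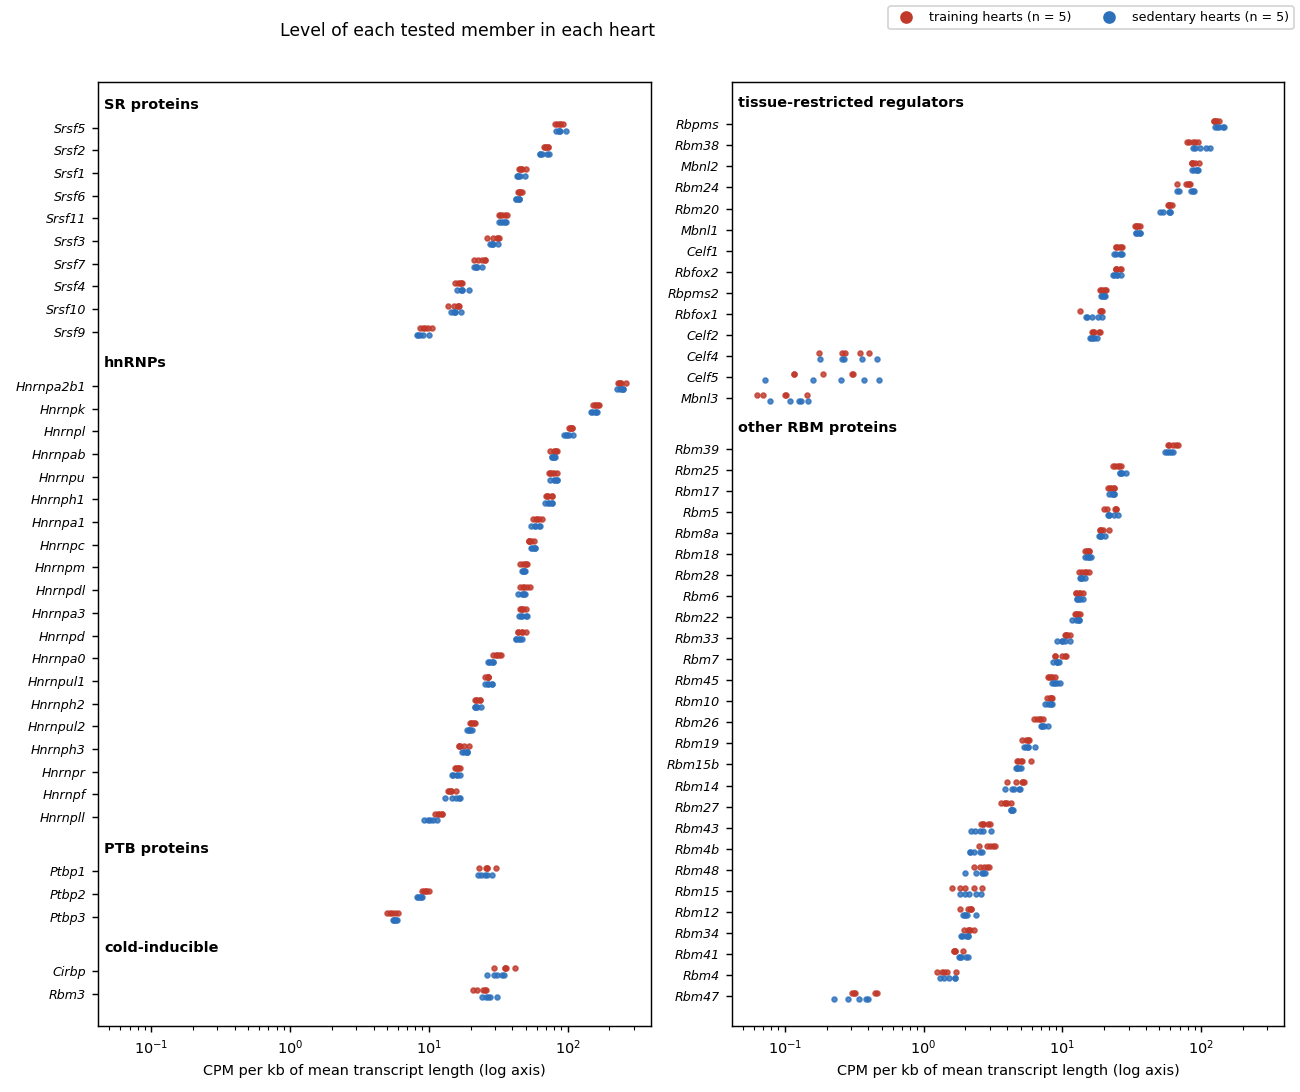
Level of each of the 76 tested members in each heart, in CPM per kb of mean transcript length on a log axis, by role. Each point is 1 heart (n = 5 per group). Training and sedentary points of most genes lie close together, while those of low-level genes such as Celf5 and Mbnl3 spread more widely. Genes differ from 0.107 (Mbnl3) to 241 (Hnrnpa2b1).

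Most members were at nearly the same level in training and sedentary hearts. At an adjusted p below 0.1 in edgeR's quasi-likelihood test, 3 of the 76 members were called (3.95%), against 7.01% of all 15454 genes tested. All 3 were higher in training hearts (2.75% of all genes were called higher), and none was lower (4.26% of all genes were called lower). At an unadjusted p below 0.05, 10 members differed, 5 higher and 5 lower, against 20% of all genes, and DESeq2 called 2 members lower at the same adjusted threshold. DESeq2 called 5 members in all, against 9.53% of all genes, and edgeR on RSEM expected counts called 3, against 6.21%. The median log2 fold change of the members was 0.02, with 43 above and 33 below 0, and 50.1% of all genes were above 0. Their median absolute log2 fold change was 0.061, compared with 0.092 over all genes tested. A 95% interval lying wholly within a 1.25-fold change either way was found for 63 of 76 members (82.9%) and for 57.7% of all genes. The spread between hearts of a group was also narrower, with a median SD of 0.080 on the log2 scale for members and 0.125 for all genes. Neither trait was particular to the members. The median SD was 0.083 for core spliceosome genes, 0.089 for kinases of SR proteins, 0.085 for exon junction and decay genes and 0.084 for RBM20 targets. Of these lists 96.6%, 100%, 100% and 86.7% of genes had an interval within that limit. Genes were not matched for level.

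**Figure D2:**
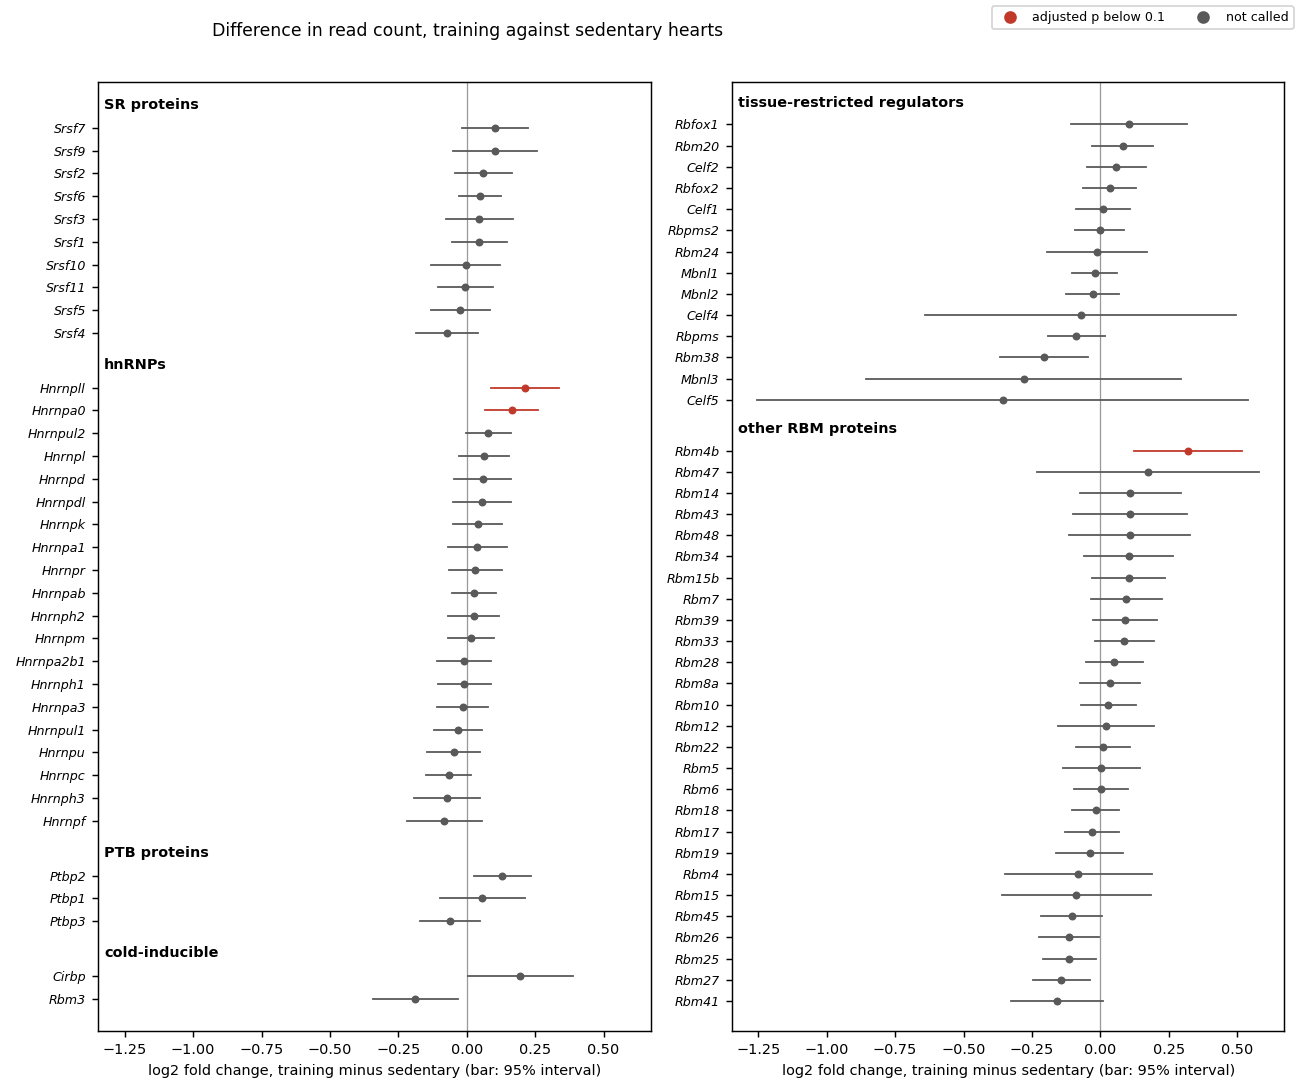
Training against sedentary hearts as log2 fold change of the 76 tested members, by role, with 95% intervals from edgeR. The 3 called members, Hnrnpll, Hnrnpa0 and Rbm4b, lie above 0, and the wide intervals belong to members of low level such as Celf5 and Mbnl3.

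Hnrnpll and Hnrnpa0 were called among the 20 hnRNPs (10%, against 7.01% of all genes called and 2.75% called higher). Hnrnpll (ENSMUSG00000024095, chromosome 17 of GRCm39, 80335472 to 80370014) encodes a relative of hnRNP L that is known for switching CD45 exons in lymphocytes. It was at 32.1, 34.1, 35.9, 33.7 and 36.1 CPM in training hearts 1 to 5 and at 26.7, 29.2, 28.5, 31.1 and 32.8 CPM in sedentary hearts 1 to 5. Sedentary heart 5 exceeded training heart 1, and the other training hearts were above every sedentary heart. The mean was 34.4 ± 1.66 CPM (SD, n = 5) against 29.7 ± 2.37 CPM (SD, n = 5), and the log2 fold change was 0.21 ± 0.057 (SE; adjusted p = 0.0607, edgeR with Benjamini-Hochberg adjustment). The 5 training hearts were all above the sedentary mean. Hnrnpll was not called without sedentary heart 2 or 3 or without training heart 3, 4 or 5, with adjusted p of edgeR between 0.108 and 0.139.

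Hnrnpa0 (ENSMUSG00000007836, chromosome 13 of GRCm39, 58273693 to 58276370, a gene of 1 exon) encodes an hnRNP that binds AU-rich elements of mRNA. Its level was 83.5, 81.5, 89.4, 78.2 and 86.1 CPM in the training hearts and 72.3, 75.6, 77.1, 77.8 and 71.1 CPM in the sedentary hearts. It was the single tested member whose groups did not overlap, which held for 5.06% of all genes, and the gap between the lowest training and the highest sedentary heart was narrow. Training hearts had 83.7 ± 4.30 CPM and sedentary hearts 74.8 ± 2.93 CPM (SD, n = 5 each), and the log2 fold change was 0.16 ± 0.044 (SE; adjusted p = 0.0620, edgeR with Benjamini-Hochberg adjustment). The call was lost without sedentary heart 2 or 5 or training heart 3 or 5, where the adjusted p of edgeR was between 0.108 and 0.142, and without a filter on low counts (adjusted p = 0.113, edgeR).

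Rbm4b (ENSMUSG00000033760, chromosome 19 of GRCm39, 4806499 to 4817093) encodes an RNA-binding protein nearly identical to its neighbour Rbm4, and both act in splicing and translation. It was at 7.19, 5.67, 6.75, 7.35 and 6.43 CPM in training and at 5.79, 4.85, 5.19, 5.97 and 4.90 CPM in sedentary hearts. Training heart 2 lay below sedentary hearts 1 and 4, and the other training hearts above every sedentary heart. Its log2 fold change was 0.32 ± 0.092 (SE; adjusted p = 0.0718, edgeR with Benjamini-Hochberg adjustment). The value depended on the strand of the reads, and with reads of both strands it was 0.10 (adjusted p = 0.556, edgeR). Of the exon bases of Rbm4b, 30.3% overlap a gene on the opposite strand, and the part of that overlap in the difference was not tested. With RSEM expected counts the log2 fold change of Rbm4b was 0.34 (adjusted p = 0.0570, edgeR). Rbm4 itself was at 1.92 ± 0.237 and 2.03 ± 0.220 CPM, with a log2 fold change of −0.08 (adjusted p = 0.773, edgeR). Of the exon bases of Rbm4, 27.0% also belong to the gene Gm21992 on the same strand, and STAR counts no read that overlaps both. RSEM, which shares out reads among the genes they match, gave Rbm4 6.57 times the reads counted by STAR. Its log2 fold change there was −0.19 (adjusted p = 0.146, edgeR on RSEM expected counts), so levels of Rbm4 and Rbm4b are uncertain. Rbm4b was called without sedentary heart 1, sedentary heart 4 or training heart 2, and not without any other single heart, where its adjusted p was between 0.109 and 0.166 (edgeR).

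None of these 3 calls held in a fit with an atrial score. With the mean log2 level of the 10 atrial markers as a covariate, the log2 fold change was 0.27 for Hnrnpll (adjusted p = 0.227), 0.14 for Hnrnpa0 (adjusted p = 0.452) and 0.15 for Rbm4b (adjusted p = 0.672, all edgeR). No member was then called, and 51 of all 15454 genes were. The log2 fold change of Hnrnpll was larger in this fit, that of Hnrnpa0 slightly smaller and that of Rbm4b smaller. The mean score was higher in training hearts, so the atrial share of a library and the effect of training cannot be fully told apart here.

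The cold-inducible pair pointed in opposite directions, and neither gene passed the threshold. Cirbp (ENSMUSG00000045193, chromosome 10 of GRCm39, 79997069 to 80008626) was at 46.4, 39.1, 32.7, 39.7 and 38.8 CPM in training hearts and at 37.3, 34.3, 38.4, 28.96 and 32.7 CPM in sedentary hearts. Training heart 1 was the highest, training heart 3 lay among the sedentary hearts, and the groups overlapped. The log2 fold change was 0.20 (95% interval of the fold 1.00 to 1.31, adjusted p = 0.235, edgeR with Benjamini-Hochberg adjustment). Rbm3 (ENSMUSG00000031167, chromosome X of GRCm39, 8004213 to 8012119) was at 31.0, 25.4, 30.0, 31.5 and 26.9 CPM in training and at 29.5, 31.5, 37.5, 32.7 and 33.8 CPM in sedentary hearts. All 5 training hearts were below the sedentary mean, yet sedentary hearts 1 and 2 fell within the training range. Its log2 fold change was −0.19 (fold 0.788 to 0.978, adjusted p = 0.168, same test), and without sedentary heart 1 it was called lower at −0.23 (adjusted p = 0.0866, edgeR).

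Within a heart, the log2 ratio of Cirbp to Rbm3 was 0.58, 0.62, 0.13, 0.33 and 0.53 in training hearts and 0.34, 0.12, 0.04, −0.18 and −0.05 in sedentary hearts. The means were 0.44 ± 0.21 and 0.05 ± 0.19 (SD, n = 5 each), a difference of 0.38. This ratio was chosen after the values of both genes were seen and is given with no test. With RSEM expected counts the difference was 0.34, although RSEM gave Rbm3 1.73 times the reads of STAR and the ratio fell below 0 in every heart. Of 17 heat shock genes, the counterpart response to warming, 1 was called (Hspa1a, higher; 5.88%, against 7.01% of all genes). Of the 17, 15 lay below 0, with a median log2 fold change of −0.08, and Bag3, Hspd1 and Stip1 were lower at an unadjusted p below 0.05 without being called. With library totals alone 11 of the 17 lay below 0. The clock genes differed between these groups as given above, but their part in the Cirbp and Rbm3 values was not tested.

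**Figure D3:**
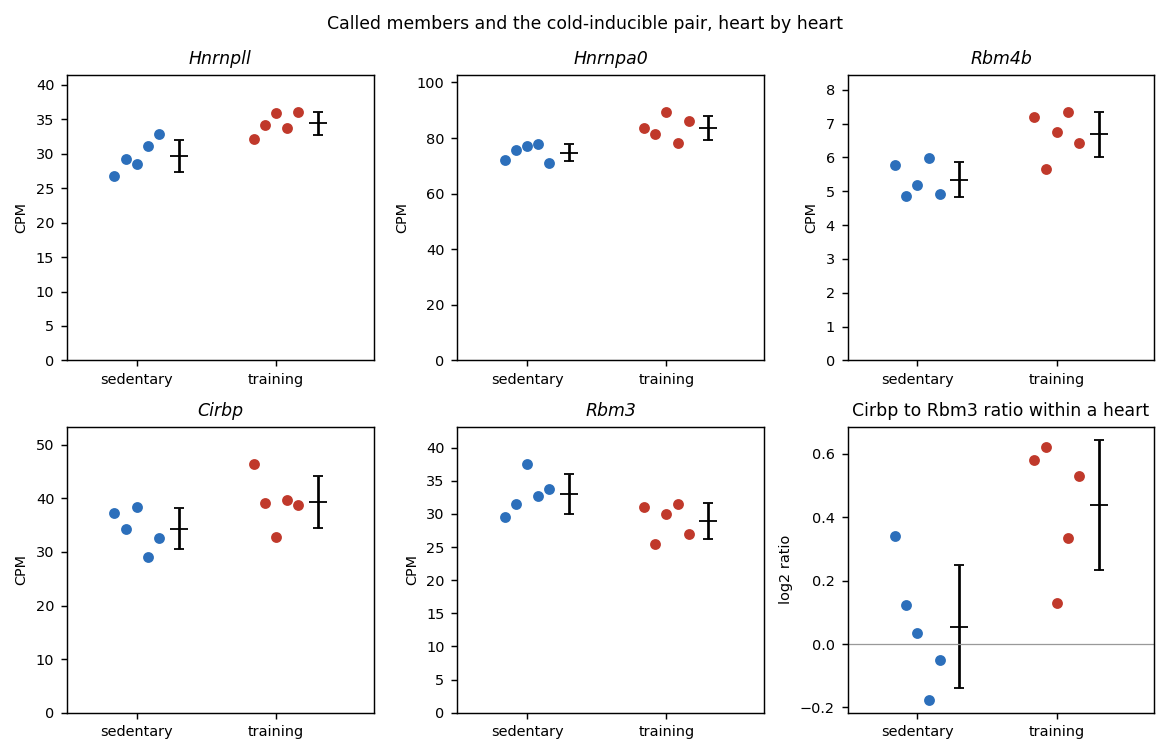
CPM of the 3 called members and of Cirbp and Rbm3 in each heart, and the log2 ratio of Cirbp to Rbm3 within each heart. Points are hearts (n = 5 per group), and bars show mean ± SD. Of the 5 genes, Hnrnpa0 alone has groups that do not overlap.

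None of the 14 tested tissue-restricted regulators was called, against 7.01% of all genes tested. Rbm20, the regulator of titin splicing, was at 261, 256, 249, 257 and 269 CPM in training hearts and at 218, 229, 256, 260.2 and 257 CPM in sedentary hearts. Sedentary hearts 1 and 2 were low and the other sedentary hearts lay within the training range. The means were 258 ± 7.25 and 244 ± 19.2 CPM (SD, n = 5 each), with a fold of 1.06 and a 95% interval of 0.979 to 1.14 (adjusted p = 0.419, edgeR). Rbm24, which is required for sarcomere assembly, was at 208 ± 17.2 CPM in training and 210.2 ± 27.8 CPM in sedentary hearts, with a fold interval of 0.874 to 1.12.

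Among muscleblind, CELF and RBFOX genes the abundant members had narrow intervals and those of low level did not. The interval of the fold was 0.932 to 1.04 for Mbnl1 and 0.917 to 1.05 for Mbnl2, which promote adult isoforms and are sequestered in myotonic dystrophy. It was 0.939 to 1.08 for Celf1 and 0.967 to 1.12 for Celf2, which oppose muscleblind proteins in development. Rbfox2 had an interval of 0.958 to 1.10. The intervals were wide for Celf4 (0.641 to 1.41), Celf5 (0.419 to 1.45) and Mbnl3 (0.552 to 1.23), so that a 1.25-fold change of these could not be told from none. Of the 14 tested tissue-restricted regulators, 10 had an interval within a 1.25-fold change (71.4%, against 57.7% of all genes). Rbfox1 was less even, at 43.1, 30.7, 43.6, 44.3 and 43.4 CPM in training and 33.8, 37.4, 34.3, 41.2 and 44.1 CPM in sedentary hearts. Training heart 2 stood apart below all other hearts, and the log2 fold change was 0.10 with all hearts (adjusted p = 0.611, edgeR) and 0.19 without it. The fold of Rbpms lay between 0.875 and 1.01 and that of Rbpms2 between 0.938 and 1.06.

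Rbm38, an RNA-binding protein that stabilizes or represses mRNAs of the p53 pathway, is described here after its values were seen. It was at 138, 152, 155, 140.4 and 163 CPM in training hearts and at 151, 168, 157, 201 and 186 CPM in sedentary hearts. Sedentary hearts 4 and 5 were the highest, and sedentary hearts 1 and 3 lay within the training range. The mean was 149.6 ± 10.5 against 173 ± 20.6 CPM (SD, n = 5 each), and the log2 fold change of −0.21 was not called by edgeR (adjusted p = 0.145) and was called lower by DESeq2 (adjusted p = 0.0992). Rbm27, a partner of nuclear RNA decay likewise chosen after its values were seen, had 23.7 ± 1.53 CPM in training and 26.1 ± 0.374 CPM in sedentary hearts. Its log2 fold change was −0.14 (adjusted p = 0.127 from edgeR and 0.0989 from DESeq2).

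**Figure D4:**
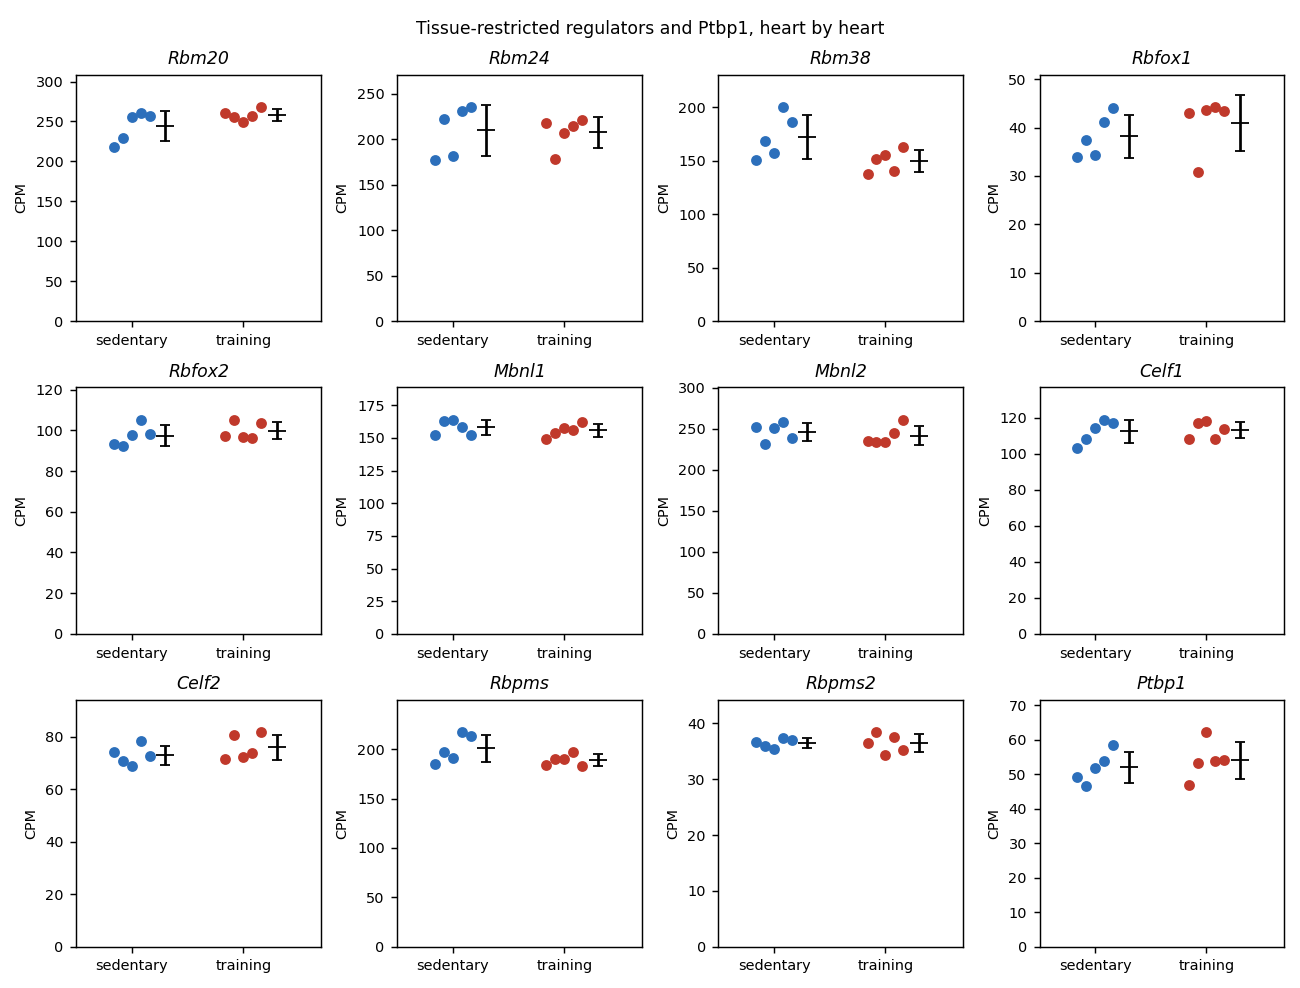
CPM of 11 tissue-restricted regulators and of Ptbp1 in each heart. Points are hearts (n = 5 per group) and bars show mean ± SD. The groups overlap in every panel, Rbm38 was lower on average without being called by edgeR, and training heart 2 stands apart in Rbfox1.

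No SR protein was called, against 7.01% of all genes tested. For all 10 tested SR proteins the 95% interval lay within a 1.25-fold change, against 57.7% of all genes and 96.6% of core spliceosome genes. Srsf1, the founding member of the family, was at 99.0 ± 4.70 CPM in training and 96.0 ± 5.34 CPM in sedentary hearts. Srsf3, which also couples splicing to mRNA export, was at 59.5 ± 4.67 and 57.6 ± 3.01 CPM, and sedentary heart 4 stood above its group at 62.8 CPM, with the others between 55.0 and 57.1 CPM. Srsf5 was at 149.9 ± 7.66 and 152 ± 9.37 CPM and Srsf10, a regulator of cardiac calcium-handling transcripts, at 34.3 ± 2.47 and 34.4 ± 2.20 CPM (SD, n = 5 each). The log2 fold changes of the 10 SR proteins ran from −0.07 (Srsf4) to 0.10 (Srsf7).

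The other hnRNPs and the PTB proteins were as even. Hnrnpa1 was at 111 ± 6.34 CPM in training and 108 ± 6.27 CPM in sedentary hearts, with a fold interval of 0.953 to 1.11. Hnrnpu, a scaffold-binding hnRNP needed for normal cardiac splicing, was at 222 ± 10.9 and 229 ± 10.2 CPM (interval 0.904 to 1.03). Hnrnpa2b1 had an interval of 0.928 to 1.06. Ptbp1, the general splicing repressor, had a fold of 1.04 (0.933 to 1.16), and Ptbp3 a fold of 0.959 (0.889 to 1.03). Ptbp2, the neuronal paralog of Ptbp1, was at 20.2 ± 0.947 against 18.4 ± 0.638 CPM (log2 fold change 0.13). It was not called by edgeR (adjusted p = 0.155) and is mentioned for its unadjusted p of 0.0177 in edgeR's test across all genes.

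Of the 27 tested genes among the other Rbm proteins, 1 was called (Rbm4b; 3.7%, against 7.01% of all genes), 17 lay above 0 and 10 below. Rbm39 was at 127 ± 9.40 CPM in training and 119 ± 6.48 CPM in sedentary hearts (log2 fold change 0.09, adjusted p = 0.391, edgeR). Rbm25 and Rbm26, named after their values were seen, both had a log2 fold change of −0.11, with adjusted p of 0.180 and 0.233 in edgeR's test. Rbm47, at 1.28 ± 0.266 against 1.13 ± 0.243 CPM, had a 95% interval of −0.23 to 0.58 in log2 fold change, so that a 1.25-fold change could not be told from none at this depth.

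A second readout asked whether the mix of transcripts of a member differed. RSEM gives each gene a mean transcript length weighted by the estimated share of its isoforms, and a shift of that length can report an isoform change of unequal lengths. Other sources of a shift, such as how reads are shared out among genes, were not tested. It could be compared for 75 members, on the log2 scale with limma. None was called at an adjusted p below 0.1, and 0.13% of 13048 genes were called in all. At an unadjusted p below 0.05 the length of 14 members differed, 13 of them longer in training hearts. Over all genes 10.2% reached that p and 7.23% were longer with it. A longer mean was found for 56 of the 75 members and for 57.4% of all genes, with a median log2 difference of 0.019 for members and 0.0041 for all genes over those also tested for level.

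The 3 members with the smallest p for length were all hnRNPs. Hnrnpab transcripts averaged 1835, 1829, 1833, 1841 and 1838 bases in training hearts and 1818, 1813, 1801, 1781 and 1799.8 bases in sedentary hearts. The groups did not overlap, and the log2 difference was 0.03 (standard error 0.0058, unadjusted p = 0.00159, adjusted p = 0.194, limma). Hnrnpc averaged 1683 ± 19.4 against 1646 ± 9.41 bases (adjusted p = 0.289, limma), and Hnrnpdl, whose own splicing is autoregulated, 2142 ± 19.7 against 2074 ± 36.5 bases (adjusted p = 0.294, limma; SD, n = 5 each). Non-overlapping lengths were found for 5 of 75 members, Hnrnpa3, Hnrnpab, Hnrnpc, Hnrnpdl and Srsf2, and for 2.49% of all genes. Hnrnpd, Hnrnph2, Ptbp3, Srsf7, Srsf10, Celf2, Rbfox1 and Rbm20 were the other members longer at that unadjusted p, and Rbm14 the single one shorter, all named after their values were seen. For Rbm20 the mean was 4466 ± 150.7 bases in training and 4234 ± 183 bases in sedentary hearts (unadjusted p = 0.0474, adjusted p = 0.485, limma).

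**Figure D5:**
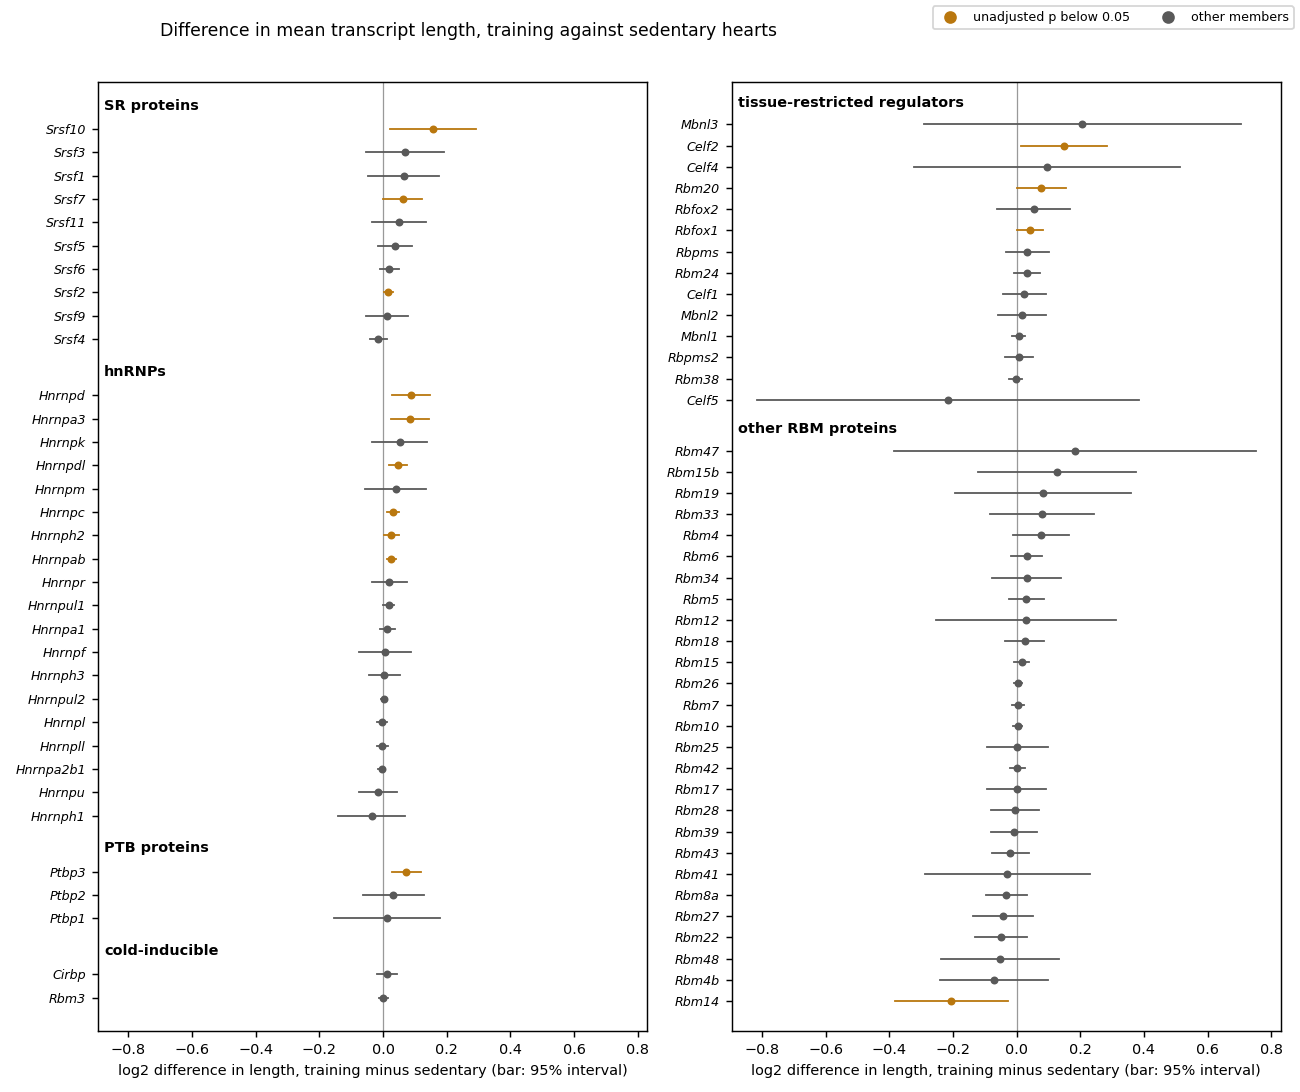
Log2 difference in mean transcript length between training and sedentary hearts for 75 members, by role, with 95% intervals from limma. Coloured points mark the 14 members with an unadjusted p below 0.05, of which 13 were longer and Rbm14 shorter, and none was called after adjustment.

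Genes around the members were read from hand-written lists. Over all genes tested, 7.01% were called and 4.26% were called lower, for comparison with the counts below. Of 59 core spliceosome genes, which form the U snRNPs and their catalytic complexes, 1 was called (1.69%): Snrnp27, lower at 21.8 ± 1.44 against 24.6 ± 1.12 CPM (log2 fold change −0.17, adjusted p = 0.0960, edgeR). None of the 9 kinases of SR proteins was called, and 1, Prpf4b, had an unadjusted p below 0.05 in edgeR's test. All 9 lay below 0, with a median of −0.06, and 5 of 9 did when library totals alone were used for scaling. Of 15 genes of the exon junction complex and nonsense-mediated decay, which removes many autoregulated SR transcripts, 1 was called (6.67%): Smg5, lower at 70.2 ± 1.73 against 79.8 ± 2.86 CPM (log2 fold change −0.18, adjusted p = 0.0231, edgeR).

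The known RNA targets of RBM20 had the most calls of these 4 lists, 4 of 15 genes (26.7%, against 7.01% of all genes), all lower in level in training hearts (4.26% of all genes were called lower). Of the 15, 12 lay below 0 and 3 above (Camk2d, Pdlim3 and Rtn4), with a median log2 fold change of −0.08. With library totals alone 10 lay below 0 and the median was −0.03. Nexn, a Z-disc protein, was at 555 ± 23.6 against 638 ± 19.2 CPM (log2 fold change −0.20, adjusted p = 0.0231, edgeR). Ldb3, also of the Z-disc, was at 1088 ± 43.9 against 1249 ± 67.8 CPM (log2 fold change −0.20, adjusted p = 0.0406, edgeR), and Cacna1c, the L-type calcium channel, at 312 ± 14.9 against 361 ± 25.4 CPM (log2 fold change −0.21, adjusted p = 0.0460, edgeR). The remaining call was Pdlim5 (log2 fold change −0.27, adjusted p = 0.0628, edgeR). Ttn was at −0.12 and not called (adjusted p = 0.278, edgeR). None of the 15 was called for transcript length. Cardiomyocyte markers moved with these targets, with 11 of 11 below 0 (10 of 11 under library totals or DESeq2 size factors) and 2 called lower. Ttn and Ryr2 stand in both lists, neither of them called, and the part of the markers in the values of the targets was not tested. The direction was not particular to cardiomyocytes. Markers below 0 were 6 of 8 for endothelium, 6 of 8 for macrophages and 5 of 5 tested for erythroid cells. Those above 0 were 7 of 8 for fibroblasts, 10 of 10 for atria, 6 of 6 tested for adipocytes and 7 of 7 tested for Schwann cells and neurons. Mural markers were split 4 and 4. None of the 4 called targets was called with the atrial score as a covariate.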

How the data were processed

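The authors deposited, heart by heart, unnormalized counts on genes from STAR 2.7.10a against GRCm39, limited to reads with 1 map position, and expected counts with transcript lengths from RSEM 1.3.3. The strand setting of RSEM is not given in the sources used here. Here the reverse-strand counts were joined by Ensembl identifier to GENCODE M39 (56017 of 56748 matched) and tested in edgeR 4.0.16 under R 4.3.3 (TMM, filterByExpr, quasi-likelihood F test, Benjamini-Hochberg adjustment over all genes, called below 0.1). CPM use TMM-corrected library sizes. Overlaps of exons between genes were read from GENCODE M39, which may differ from the annotation used for counting. Lengths were tested with limma 3.58.1 (trend and robust prior) on log2 values. DESeq2 1.42.0 was an alternative, and expected counts were rounded for edgeR. Steps were tested on simulated data. Libraries of a group differed by more than counting noise (chi-square per degree of freedom of 6.02 to 27.8). Labels call the samples separate mice.

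The members and lists were chosen with earlier results of these data known. Named were Cirbp, Rbm3, 17 regulators picked by role, called and non-overlapping members, the highest and lowest level per role, the 3 smallest length p, up to 3 called genes per list, and members under the filter. Others are marked in the text. Levels of Rbm3, Rbm4, Rbm12, Rbm42 and Hnrnpf are uncertain, as RSEM gave each over 1.5 times the reads of STAR.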

Additional observations from a re-analysis of the deposited data

Results flagged for a closer look

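Over the 62 groups of 5 hearts of the 31 named members that were tested, 2 held 1 heart far from the others by Dixon's test, and chance would give about 1 in 20. Rbfox1 was at 30.7 CPM in training heart 2 and between 43.1 and 44.3 CPM in the other training hearts. Srsf3 was at 62.8 CPM in sedentary heart 4 and between 55.0 and 57.1 CPM in the other sedentary hearts.

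Rbm42, a spliceosome-associated protein, had 0 to 3 counts per heart in the STAR tables and 11 counts in all, and 64.3% of its exon bases also belong to the readthrough gene Gm21982 on the same strand. STAR counts no read that overlaps both genes. The overlap was read from GENCODE M39, and its part in the low count was not tested. In the RSEM expected counts Rbm42 had 1048 to 1351 reads per heart. There it stood at 29.3 ± 1.06 CPM in training and 29.6 ± 1.46 CPM in sedentary hearts (SD, n = 5 each), a log2 fold change of −0.01 (adjusted p = 0.904, edgeR).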

How the results depend on the processing

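The count of called members was 5 with DESeq2 (2 of them lower), 5 with library totals alone (all higher, Hnrnpul2 and Ptbp2 added), 0 with the atrial score as a covariate and 0 at an FDR below 0.05, and without a filter on low counts 1 member (Rbm38) was called lower. Of all genes, 9.53% were called with DESeq2 and 8.85% with library totals alone (1029 higher and 339 lower). With the atrial score 0.33% were called, and 3.55% without the filter. Leaving out 1 heart gave 0 to 5 called members, 0 to 3 higher and 0 to 2 lower. In those fits 3.29% to 9.58% of all genes were called. Library totals moved the median of the members to 0.07 (58 above 0, 18 below). They turned uncalled log2 fold changes positive for Hnrnpa2b1 (0.043), Hnrnpu (0.0052), Mbnl1 (0.034), Mbnl2 (0.025), Rbm24 (0.044), Rbpms2 (0.050), Srsf10 (0.050) and Srsf5 (0.030). With the atrial score Rbm24 (0.10), Rbm47 (−0.20), Rbpms2 (0.0093), Srsf3 (−0.029), Srsf5 (0.0087) and Srsf9 (−0.032) changed sign, with reads of both strands Hnrnpab (−0.0027) with RSEM Rbpms2 (0.0087) and after correcting for gene length Celf1 (−0.026). Without 1 heart the sign changed for Celf1 (−0.019 to 0.030), Hnrnpa2b1 (−0.042 to 0.0082), Rbm24 (−0.068 to 0.037), Rbpms2 (−0.023 to 0.018), Srsf10 (−0.028 to 0.038) and Srsf5 (−0.049 to 0.013). The cause was not tested. Hnrnpll, Hnrnpa0 and Rbm4b stayed above 0 in every fit run.

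Members called for length numbered 0 to 1 without 1 heart (Rbm15b, without training heart 4) and 0 under the other alternatives. Core spliceosome calls were 0 with the atrial score, library totals or the block and 0 to 2 without 1 heart. Exon junction and decay calls were 2 with DESeq2, 0 with the atrial score or library totals and 1 to 3 without 1 heart. RBM20 target calls were 0 with the atrial score and 1 to 4 without 1 heart, 1 without sedentary heart 3 and 2 without training heart 3.

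Hearts with the same mouse number had residual correlations of −0.10 to 0.16, and 1 of 5 correlated best with its own number, so the numbers were not taken as pairs. With the replicate block 3 members were called, 0 for length, and Hnrnpll, Hnrnpa0 and Rbm4b were those 3.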
